A study of Mus musculus with 6 samples.

Results

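Genes of iron uptake, storage and export were followed in mouse sciatic nerve, 10 in all: Trf, Tfrc, Cybrd1, Steap3, Slc11a2, Slc39a14, Fth1, Slc40a1, Heph and Cp. They were chosen by name, and all 10 of 10 were matched to a probe set, among 20239 named genes on the array. The nerves came from 3 mutant mice with the genotype DhhCre::Sip1 flox/flox and 3 control mice with the genotype Sip1 flox/flox, all 25 days old, with 1 array per mouse. Sip1 is an older name of Zeb2, a zinc finger repressor, and DhhCre is a Cre recombinase under desert hedgehog control that is active in the Schwann cell lineage. All 6 mice therefore carried the floxed alleles, only the mutants carried Cre, and no group with Cre alone was analysed here. The set was proposed with the difference between mutant and control already known, so the differences of these 10 genes are given as a description and not as a test.

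Cells of most tissues take up iron bound to transferrin, the product of Trf, through the transferrin receptor encoded by Tfrc. In the endosome the ferric ion is reduced by STEAP proteins and leaves through the divalent metal transporter encoded by Slc11a2, while Slc39a14 encodes a transporter that can also import iron not bound to transferrin. Iron that is not used is stored in ferritin, of which Fth1 encodes the heavy subunit, and ferroportin, encoded by Slc40a1, exports it with the help of the copper oxidases hephaestin (Heph) and ceruloplasmin (Cp). In nervous tissue, myelin-forming glia are known for a high demand for iron and for making transferrin.

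Both ferric reductases of the set, the importer Slc39a14 and the ferroxidase Cp were higher in mutant nerves, and transferrin, its receptor, ferritin, ferroportin, Slc11a2 and Heph differed by less. Cybrd1, which encodes a plasma membrane ferric reductase, stood 12.1-fold higher in the mutants. Slc39a14 was 1.78-fold, Steap3 1.69-fold and Cp 1.52-fold higher. These 4 genes passed an adjusted p under 0.05 in the fit across all genes and the other 6 did not, which is 4 of 10 beside 9.62% of all genes in either direction and 5.74% of all genes for higher values alone. No member passed as lower, beside 3.89% of all genes. In 5 of the 10 genes the mutant and control values did not overlap, as in 28.1% of all genes. The contrast had been used to propose the set, so nothing is read from these counts. The median difference of the 10 genes was 0.12 on the log2 scale, beside −0.02 over all genes.

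Array values are log2 values of 1 probe set per gene. A value of one gene cannot be set against that of another as an amount of transcript. Where values are set beside the array medians or summed over markers, only array signal is meant. Zeb2 itself was lower in the mutants, at 10.96, 10.66 and 11.01 in mutants 1 to 3 against 11.67, 11.57 and 12.02 in controls 1 to 3 (difference −0.88, SE 0.15, limma adjusted p = 0.0137). Markers of the Schwann cell lineage were present in every nerve, and 3 of the 5 measured were lower in every mutant than in every control. Sox10 stood at 10.04 to 10.56 in the mutants and at 10.90 to 11.45 in the controls (difference −0.74, SE 0.20, limma adjusted p = 0.0639). Of 5 measured lineage markers of 6, S100b (−1.51) and Erbb3 (−1.14) fell and none rose. Cdh19 and Foxd3 overlapped between the groups, each with a difference of 0.03. The nerves also held other tissue: 10 markers of skeletal muscle averaged 7.58, 12.61 and 9.88 in mutants 1 to 3, against 7.55, 12.50 and 10.44 in controls 1 to 3. For 7 markers of adipocytes the averages were 11.07, 11.36 and 10.68, against 12.21, 11.43 and 10.15. Xist and Y-linked genes placed 2 males and 1 female among the mutants and 1 male and 2 females among the controls. Mutant 1, mutant 2 and control 3 were the males, so the mutant and the control of each number were of opposite sex. Differences between mice of one number therefore also hold a difference of sex. In whole nerves, fewer cells of a type and less RNA per cell cannot be told apart.

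Because ZEB proteins are repressors that bind the letters CACCT, and most strongly CACCTG, the stretches in front of the genes are shown with these letters marked. RefSeq start sites of build GRCm38.p6 were on file for 5 of the 10 genes, Cybrd1, Tfrc, Cp, Fth1 and Steap3, and not for Trf, Slc11a2, Slc40a1, Slc39a14 and Heph. The 250 bases before the most upstream listed start of Cybrd1 (chr2:71117804-71118053, plus strand), Steap3 (chr1:120271081-120271330, minus strand), Cp (chr3:19956804-19957053, plus strand) and Tfrc (chr16:32608646-32608895, plus strand) follow, 5′ to 3′, because the first 3 were higher in the mutants and Tfrc was the member with the lowest difference. Capitals mark CACCT on the strand shown or, as AGGTG, on the other.
Cybrd1: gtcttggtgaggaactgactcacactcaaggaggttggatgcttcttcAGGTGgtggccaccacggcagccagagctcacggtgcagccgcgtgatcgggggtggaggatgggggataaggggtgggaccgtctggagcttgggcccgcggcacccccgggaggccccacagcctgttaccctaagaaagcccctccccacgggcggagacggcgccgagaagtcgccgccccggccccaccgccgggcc
Steap3: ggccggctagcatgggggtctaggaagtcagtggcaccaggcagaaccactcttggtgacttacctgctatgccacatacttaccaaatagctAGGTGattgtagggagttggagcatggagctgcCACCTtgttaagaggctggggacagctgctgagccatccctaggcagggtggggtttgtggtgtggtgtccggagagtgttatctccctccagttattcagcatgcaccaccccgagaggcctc
Cp: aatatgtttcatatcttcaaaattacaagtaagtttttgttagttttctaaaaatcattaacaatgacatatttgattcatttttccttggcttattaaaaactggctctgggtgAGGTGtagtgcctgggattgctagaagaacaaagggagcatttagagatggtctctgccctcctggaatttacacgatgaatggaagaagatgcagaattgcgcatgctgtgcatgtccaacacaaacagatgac
Tfrc: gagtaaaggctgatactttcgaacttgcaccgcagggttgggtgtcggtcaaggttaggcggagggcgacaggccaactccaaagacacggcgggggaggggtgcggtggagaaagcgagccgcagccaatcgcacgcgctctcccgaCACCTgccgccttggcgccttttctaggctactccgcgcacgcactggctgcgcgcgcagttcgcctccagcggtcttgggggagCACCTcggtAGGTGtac

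The full CACCTG, read on both strands over windows from 250 bases before to 50 after a start, was found for Cybrd1, Tfrc and Fth1. It began 203 bases before the start of Cybrd1 on the opposite strand, 102 bases before that of Tfrc and 238 bases before the most upstream start of Fth1. In Cybrd1 the marked AGGTG and the c just before it make up the full letters, read as CAGGTG on the strand shown. Of all 32851 windows 20.2% held CACCTG, beside 3 of the 11 windows of these 5 genes. At least 1 window of 22.6% of 27025 genes held it, beside 3 of these 5. A gene with more windows is more likely to be counted, so the counts by window are the like ones. Of all windows 51.9% held the shorter CACCT, which every CACCTG contains, beside 8 of the 11 windows of these 5 genes. At least 1 window of each of the 5 genes held CACCT, against 55.2% of all genes on file. The letters were thus present in front of the gene with the largest difference and in front of genes with little difference.

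**Figure D1:**
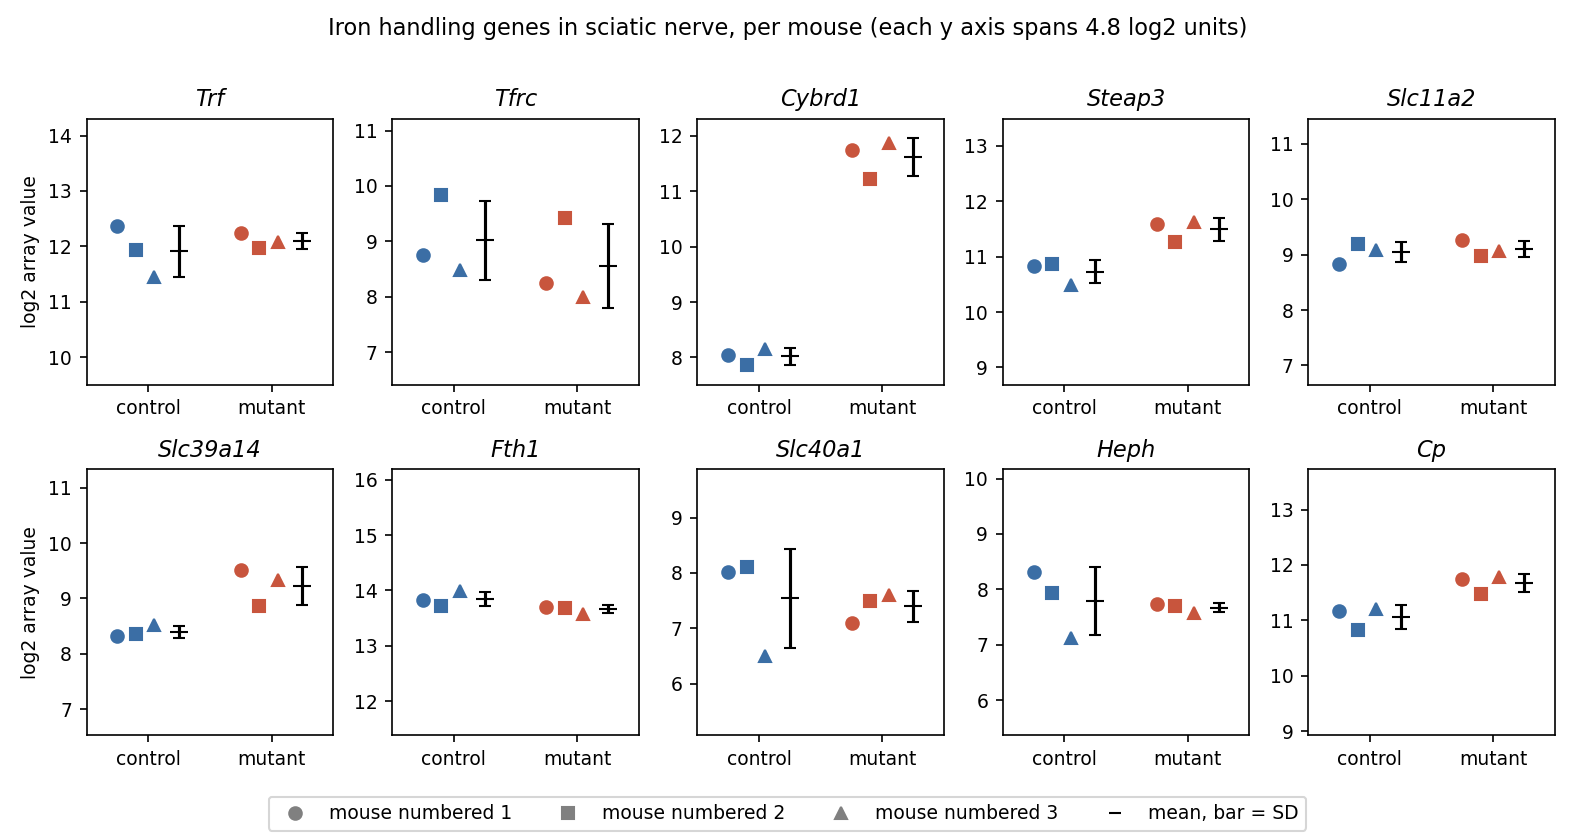
Log2 array values (y axis) of the 10 iron genes in 3 control (blue) and 3 mutant (red) sciatic nerves. Symbols mark the mouse number in the labels, the black bar is the group mean with its SD, and every y axis spans the same number of log2 units. Cybrd1 shows the widest gap, from a control mean of 8.02 to a mutant mean of 11.62, while the control values of Slc40a1 and Heph spread further than the mutant ones.

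The values of transferrin overlapped between the groups. Trf stood at 12.25, 11.97 and 12.07 in mutants 1 to 3 and at 12.36, 11.94 and 11.44 in controls 1 to 3. The groups overlapped, with the mutants inside the control range (difference 0.18, SE 0.22, 95% confidence interval −0.35 to 0.72). The interval does not show that the groups were alike, since it reaches 0.72 on the log2 scale. The markers of myelinating Schwann cells behaved otherwise in the same nerves: all 4 measured of 6 fell, from Mbp at −1.39 to Pmp2 at −6.58, and the log2 of their summed values ran from 11.36 to 11.76 in the mutants and from 14.26 to 14.58 in the controls.

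The transferrin receptor gene Tfrc varied more between mouse numbers than between genotypes. It stood at 8.25, 9.42 and 8.00 in mutants 1 to 3 and at 8.75, 9.83 and 8.49 in controls 1 to 3, so the groups overlapped and the nerves numbered 2 were highest in both. The difference was −0.47 (SE 0.46, 95% confidence interval −1.56 to 0.63). Its size rested on single nerves, at −0.06 without control 2, −0.19 without mutant 3, −0.31 without mutant 1, −0.73 without control 3 and −0.90 without mutant 2, and it was −0.99 with array weights. Each mutant lay below the control of its own number, with differences of −0.50, −0.41 and −0.49, though each such pair joined a male and a female. With the replicate number as a block the difference kept its size with an SE of 0.10, and Tfrc became the fifth member past the threshold, the 1 that was lower. All 10 skeletal muscle markers were measured, and the log2 of their summed values ran from 11.26 to 16.22 in the mutants and from 11.08 to 16.32 in the controls, highest in the nerves numbered 2, where Tfrc was highest too. Their part in the Tfrc values was not tested beyond 2 fits: with the muscle mean as a covariate the difference was −0.44 (SE 0.33), and without both nerves numbered 2 it was −0.50 (SE 0.15).

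The ferric reductase gene Cybrd1 was the member with the largest difference. Its values were 11.75, 11.23 and 11.87 in mutants 1 to 3, against 8.05, 7.86 and 8.15 in controls 1 to 3. The lowest mutant lay more than 3 log2 units above the highest control, and the difference was 3.60 (SE 0.18, 95% confidence interval 3.17 to 4.02). Across the 3 mouse numbers the difference was 3.70, 3.37 and 3.71. Its control values lay near the array medians of 8.00 to 8.08, and background on an array compresses fold changes at the low end.

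Steap3, which encodes the endosomal ferric reductase of the transferrin cycle, differed less. It stood at 11.58, 11.27 and 11.63 in mutants 1 to 3 and at 10.83, 10.87 and 10.49 in controls 1 to 3, without overlap (difference 0.76, SE 0.15, 95% confidence interval 0.41 to 1.11). Between mice of the same number the difference ran from 0.39 for those numbered 2 to 1.14 for those numbered 3. In Cybrd1 and Steap3 alike, mutant 2 was the lowest of the mutants, and it was also the nerve richest in muscle markers among the mutants. Control 2, the control richest in muscle markers, was the lowest control for Cybrd1 and the highest for Steap3. Without both nerves numbered 2 the differences were 3.71 for Cybrd1 and 0.94 for Steap3. With the muscle mean as a covariate they were 3.59 and 0.76. The part of muscle was not tested further.

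The importers went separate ways. Slc11a2, the endosomal iron transporter, stood at 9.27, 8.98 and 9.06 in mutants 1 to 3 and at 8.84, 9.20 and 9.09 in controls 1 to 3. The groups overlapped, and the difference of 0.06 (SE 0.13) had a 95% confidence interval of −0.24 to 0.36. It turned to −0.04 without control 1 and to −0.02 without mutant 1. Slc39a14, the importer of iron, zinc and manganese at the cell surface, stood at 9.51, 8.86 and 9.33 in mutants 1 to 3 and at 8.32, 8.35 and 8.52 in controls 1 to 3. Every mutant was above every control (difference 0.84, SE 0.17, 95% confidence interval 0.43 to 1.24), and mutant 2 was again the lowest mutant.

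Ferritin heavy chain showed a narrow spread and a small difference. Fth1 stood at 13.70, 13.69 and 13.58 in mutants 1 to 3 and at 13.83, 13.72 and 13.99 in controls 1 to 3. All mutants were below all controls, mutant 2 and control 2 differing by only −0.02, and the difference was −0.19 (SE 0.10, 95% confidence interval −0.42 to 0.04). Fth1 has near-identical processed copies in the genome, whose share in the probe set is not known.

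The export genes Slc40a1 and Heph varied among the controls rather than between the groups. Slc40a1, the ferroportin gene, stood at 7.09, 7.50 and 7.61 in mutants 1 to 3 and at 8.01, 8.11 and 6.50 in controls 1 to 3. Control 3 was the lowest and the other controls were the highest of the 6 nerves (difference −0.14, SE 0.42, 95% confidence interval −1.14 to 0.85). Heph, which encodes a membrane-bound ferroxidase, stood at 7.74, 7.69 and 7.58 in mutants 1 to 3 and at 8.32, 7.93 and 7.13 in controls 1 to 3, with the mutants between control 2 and control 3 (difference −0.13, SE 0.28, 95% confidence interval −0.79 to 0.54). The values of both genes, from 6.50 to 8.32, lay around or below the array medians.

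The sign of these differences depended on single nerves. Without control 3 the difference was −0.66 for Slc40a1, −0.46 for Heph and −0.05 for Trf, against 0.09, 0.14 and 0.41 without control 1. The Slc40a1 difference was also above 0 without control 2 (0.14) and without mutant 1 (0.01). Control 3 was the 1 male among the controls. Over all 6 nerves Slc40a1 was lower in every male, at 6.50 to 7.50, than in every female, at 7.61 to 8.11. Heph and Trf overlapped between the sexes. With sex as a covariate the difference was 0.17 for Slc40a1 (SE 0.29), 0.02 for Heph (SE 0.27) and 0.30 for Trf (SE 0.22). The part of sex was not tested further. Control 3 was also the nerve lowest in adipocyte markers and control 1 the highest. Of 8 adipocyte markers 7 were measured, none passed the test, and the log2 of their summed values ran from 14.15 to 14.75 in the mutants and from 13.51 to 15.36 in the controls. With the adipocyte mean as a covariate, chosen after seeing the data, the difference was 0.01 for Slc40a1 (SE 0.28), 0.00 for Heph (SE 0.10) and 0.27 for Trf (SE 0.13). None of the 3 passed the threshold in any of these fits.

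**Figure D2:**
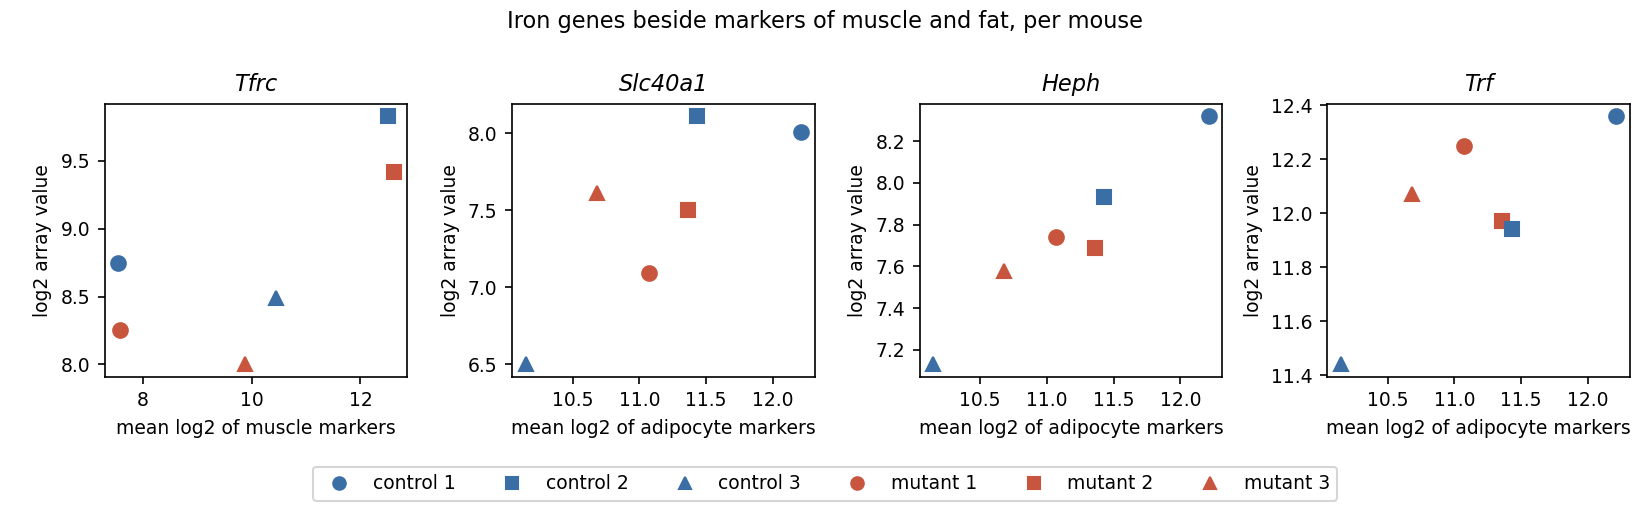
Log2 array values (y axis) of Tfrc against the mean log2 value of 10 muscle markers, and of Slc40a1, Heph and Trf against the mean of 7 adipocyte markers (x axes), 1 point per nerve, controls blue and mutants red. The nerves numbered 2 hold the highest Tfrc values and muscle means, and control 3 holds the lowest Slc40a1, Heph and Trf values and the lowest adipocyte mean.

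Ceruloplasmin was the ferroxidase with higher values in the mutants. Cp stood at 11.74, 11.48 and 11.79 in mutants 1 to 3 and at 11.17, 10.82 and 11.20 in controls 1 to 3. All mutants were above all controls (difference 0.61, SE 0.14, 95% confidence interval 0.28 to 0.93), and the gap was even across the mouse numbers at 0.57, 0.66 and 0.59. The probe set does not tell the secreted form of ceruloplasmin from the form anchored to the membrane.

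The count of members past the threshold changed with the nerves fitted, as did that of all genes, 1948 of 20239 in the full fit. It was 1 without mutant 1 and 1 without mutant 3, Cybrd1 in both, where 896 and 910 of all genes passed. It was 2 without control 1, control 2 or control 3, Cybrd1 and Steap3 in each. In those fits 1689, 1314 and 1566 of all genes passed. Without mutant 2 it stayed at 4, with 2021 of all genes. With sex as a covariate it was 2, Cybrd1 and Steap3, with 1576 of all genes. The differences themselves moved little: Slc39a14 ran from 0.70 to 1.04, Cp from 0.49 to 0.74 and Steap3 from 0.64 to 0.94 over 19 alternatives.

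Markers of cells in the nerve moved alongside these 4 genes. The log2 of the summed Schwann lineage markers was 12.30 to 12.71 in the mutants and 12.97 to 13.62 in the controls, without overlap. Of 6 perineurial markers, all measured, 4 rose and none fell, led by Moxd1 at 2.03, and the log2 of their summed values ran from 14.44 to 14.64 in the mutants and from 13.43 to 13.89 in the controls. Of 7 fibroblast markers 2 rose, Lum and Pdgfra, and the log2 of their sum was 15.51 to 15.70 in the mutants and 15.24 to 15.41 in the controls. None of 9 macrophage markers passed, with a log2 sum of 12.81 to 13.05 in the mutants and 12.34 to 12.78 in the controls. The part of these cells in the values of Cybrd1, Steap3, Slc39a14 and Cp was not tested. Of 6 endothelial markers 1 fell, Cldn5, and their log2 sum overlapped, at 13.08 to 13.11 in the mutants and 12.85 to 13.26 in the controls. Of 8 red blood cell markers 4 were measured, none passed, and their log2 sum overlapped between groups, at 11.25 to 12.84 in the mutants and 11.39 to 11.86 in the controls.

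Other genes of iron metabolism, in 7 lists outside the set, were tested in the same fit. The lists were chosen with earlier results of these data known, so they are not an independent check. Of 69 listed genes 62 were measured, 4 rose, 3 fell and 55 did not pass, which is 11.3% called beside the 9.62% of all genes, and so near the background. Their median difference was −0.06, beside −0.02 over all genes. The 4 that rose were Steap2, Steap1, Abcg2 and Bmp6, and the 3 that fell were Hmox1, Alad and Lcn2. The count was 3 without mutant 3, 4 without mutant 1, 4 without both nerves numbered 2, and 14 with array weights. In the same fits 910, 896, 1324 and 3655 of all 20239 genes passed, beside 1948 in the full fit.

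Of the 8 other genes of iron uptake and export 3 passed (37.5%, beside 9.62% of all genes), with Steap2 and Steap1 higher and Lcn2 lower. The largest change was in the family of Steap3. Steap2, which encodes another ferric and cupric reductase, stood at 9.72, 9.52 and 9.86 in mutants 1 to 3 and at 8.12, 8.05 and 8.24 in controls 1 to 3. It rose by 1.56 on the log2 scale (SE 0.11, 2.96-fold, limma adjusted p = 0.000582), with no overlap of the groups. Steap1, a family member that lacks the oxidoreductase domain, rose by 0.53 (SE 0.12, limma adjusted p = 0.0358), from values of 5.82 to 6.15 in the controls to 6.38 to 6.64 in the mutants, low on the arrays. Its call was lost with the replicate number as a block (limma adjusted p = 0.0532) and without mutant 1 (0.134), mutant 3 (0.147), control 2 (0.0999), control 3 (0.0836) or both nerves numbered 2 (0.0993). Both low-value filters left Steap1 out. Over the 17 alternatives in which it was tested, its adjusted p ran from 0.00759 to 0.147. Steap4 stood at 10.88 to 11.06 in the mutants and at 11.69, 11.01 and 10.30 in controls 1 to 3 (difference −0.04, SE 0.32, limma adjusted p = 0.963). Lcn2, a siderophore-binding lipocalin, fell by 0.40 (SE 0.10, limma adjusted p = 0.0475), and the call was lost without any 1 of the 6 nerves (adjusted p from 0.0697 to 0.145), without both nerves numbered 2 (0.153), with sex (0.116) or the adipocyte mean (0.0509) as a covariate and with the block (0.0626), within a range of 0.0294 to 0.153 over all alternatives.

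Of 7 measured genes of heme synthesis 1 passed (14.3%), and of 12 genes of heme transport and breakdown 2 passed (16.7%), beside 9.62% of all genes. Hmox1, the inducible heme oxygenase that frees iron from heme, stood at 9.14, 9.31 and 9.30 in mutants 1 to 3 and at 10.13, 10.08 and 10.28 in controls 1 to 3, without overlap. It fell by 0.91 on the log2 scale (SE 0.09, limma adjusted p = 0.00216). Alad, the second enzyme of heme synthesis, stood at 10.86, 11.03 and 10.98 in mutants 1 to 3 and at 11.96, 11.60 and 11.97 in controls 1 to 3. It fell by 0.89 (SE 0.12, limma adjusted p = 0.00627), while the other 6 measured genes of heme synthesis lay between −0.08 and 0.06 and did not pass. Abcg2, an exporter that carries porphyrins among other compounds, rose by 0.48 (SE 0.11, limma adjusted p = 0.0416), and its call was lost without mutant 1 (0.175), mutant 3 (0.165), control 1 (0.0966) or control 2 (0.12). It was also lost without both nerves numbered 2 (0.108), with median centring (0.0839) and with the muscle mean (0.0681) or sex (0.1) as a covariate, within a range of 0.00602 to 0.175. Hmox1 and Alad passed in all 19 alternatives, Hmox1 with an adjusted p of at most 0.0177 and Alad of at most 0.0378.

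Genes of iron sensing and of the hepcidin axis gave 1 call among 11, which is 9.09% beside 9.62% of all genes and so near the background. Bmp6, a ligand that induces hepcidin in liver, stood at 9.73, 9.88 and 9.86 in mutants 1 to 3 and at 9.36, 9.38 and 9.35 in controls 1 to 3. It rose by 0.46 (SE 0.08, limma adjusted p = 0.0142), a call that was lost without mutant 3 (0.0788) and without both nerves numbered 2 (0.0847), within a range of 0.00978 to 0.0847. The iron regulatory proteins Aco1 (difference −0.24, SE 0.20, limma adjusted p = 0.556) and Ireb2 (0.11, SE 0.11, limma adjusted p = 0.657), which bind transcripts such as those of Tfrc and Fth1, did not pass. Hjv, hemojuvelin, a gene of skeletal muscle and liver, reached 11.34 in mutant 2 and 12.39 in control 2 against 7.06 to 9.02 in the other 4 nerves, again the nerves with the most muscle RNA. Its difference of −0.72 did not pass (SE 1.47, limma adjusted p = 0.826), but passed with the block (SE 0.14, adjusted p = 0.0268), within a range of 0.0268 to 0.976. The Hjv difference turned above 0 without control 2 (0.66) or mutant 1 (0.22), and was −1.92 without mutant 2, −1.79 without control 1 and −2.86 with array weights.

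The remaining lists held no call. None of 6 genes of transferrin cycle trafficking passed, the smallest p being that of the endolysosomal channel gene Mcoln1 (difference −0.19, SE 0.07, limma adjusted p = 0.2). None of 4 genes of ferritin and iron chaperones passed, with Pcbp1, a chaperone that loads ferritin, at 0.14 (SE 0.08, limma adjusted p = 0.388). None of 14 measured genes of mitochondrial iron and iron-sulfur clusters passed, and their differences ran from −0.30 to 0.03, with Isca2, an assembly factor of iron-sulfur clusters, at −0.30 (SE 0.11, limma adjusted p = 0.171).

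**Figure D3:**
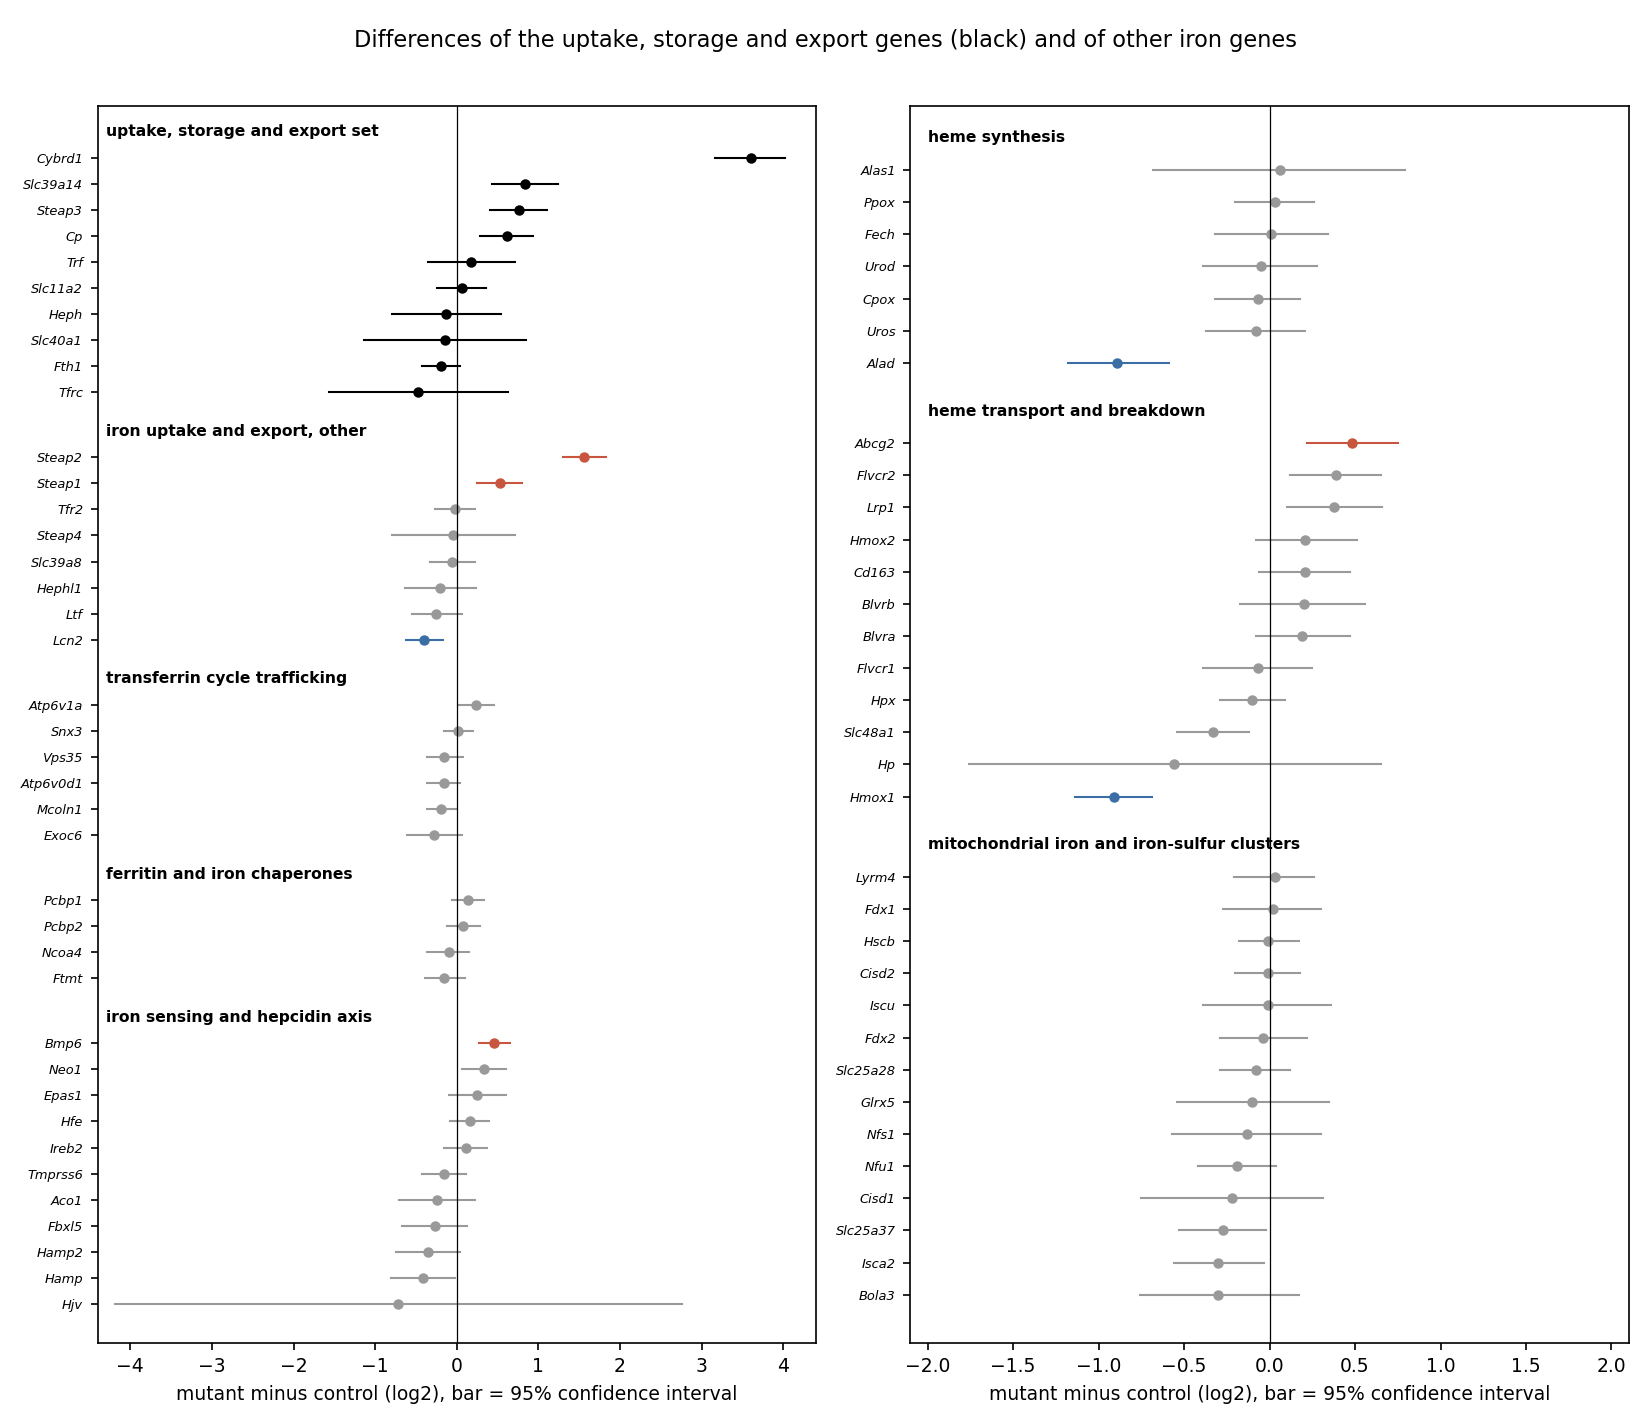
Mutant minus control difference on the log2 scale (x axis, ranges differ between the panels) with its 95% confidence interval for the uptake, storage and export genes in black and for 62 other iron genes by list. In the other lists red marks genes that rose, blue those that fell and grey those that did not pass an adjusted p under 0.05. Cybrd1 lies at 3.60, Steap2 at 1.56, and Hmox1 and Alad at −0.91 and −0.89.

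The genes whose values followed Cybrd1 most closely over the 6 arrays, among 10119 genes at or above the median level, were Adgrb1 (Pearson r = 0.9997), Kcnj10 (0.9996), Dlx1 (0.9995), Pdgfc (0.9993) and Steap2 (0.999). In each of them every mutant lay above every control, with differences of 0.76, 3.06, 2.62, 2.62 and 1.56, and mutant 2 was the lowest mutant. The 5 nearest to Tfrc were Spns2 (r = 0.9896), Dyrk1b (0.9881), Popdc2 (0.9839), Mapkapk2 (0.9837) and Uros (0.9831), which had the nerves numbered 2 as the highest of each group and differences from −0.59 to −0.08. These correlations run over 6 arrays that differ in genotype and in muscle content, both of which enter them, and they carry no test. The genes were picked by these correlations, so the patterns they share with Cybrd1 or Tfrc follow from the choice.

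**Figure D4:**
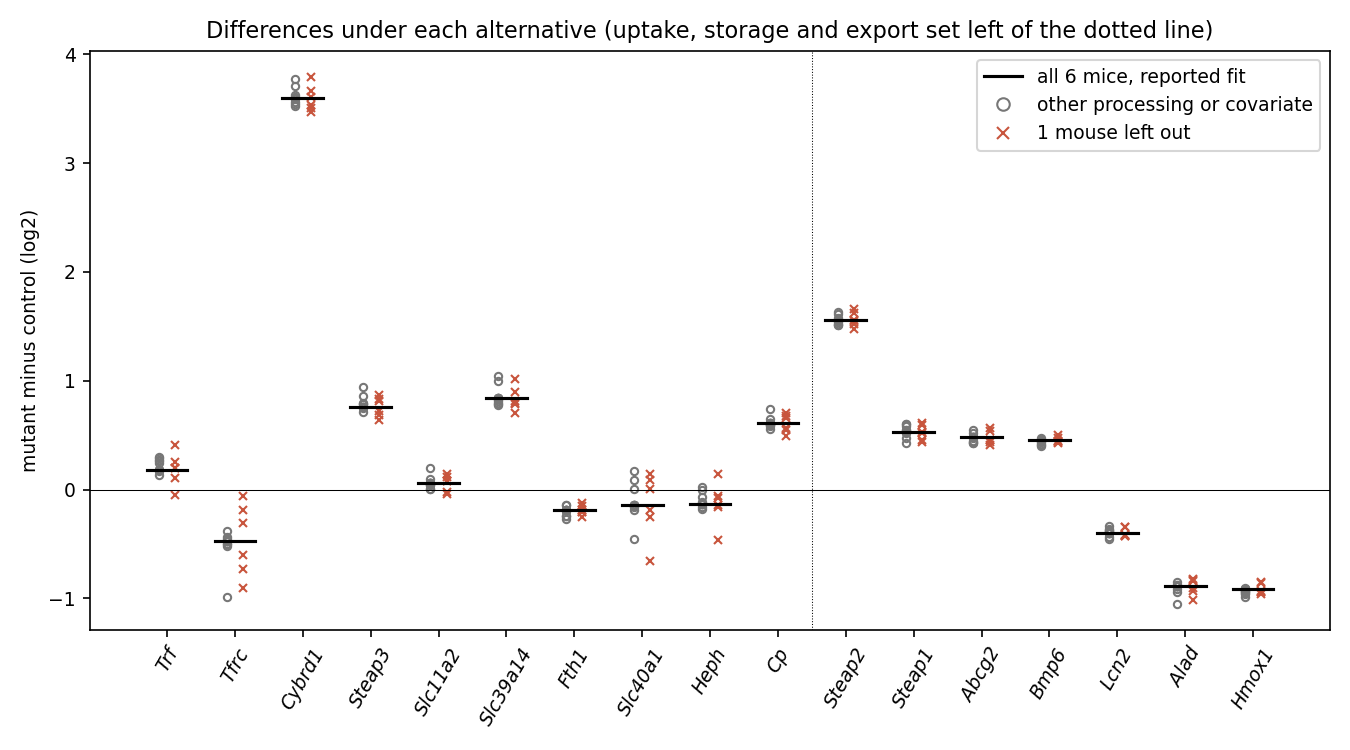
Mutant minus control difference on the log2 scale (y axis) of the 10 genes of the set and, right of the dotted line, of the 7 other iron genes that passed. The black line is the fit of all 6 mice, circles are other processing or covariates and crosses leave out 1 mouse each. Cybrd1 stays between 3.47 and 3.79, and Slc40a1, Heph, Slc11a2 and Trf fall on both sides of 0.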

How the data were processed

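The values are log2 values that the authors deposited for each probe set and mouse, from 1-colour Affymetrix arrays of Trizol-extracted RNA, per the labels' protocols. The log base was read from their range, 3.55 to 14.52. Background correction and normalization are not stated in the labels, whose processing notes by the submitters name limma only. Symbols came from the platform annotation, updated to RefSeq GRCm38.p6, for 20239 of 21225 probe sets, 1 probe set each; 986 had none.

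All 20239 genes were fitted as mutant minus control with limma 3.58.1 under R 4.3.3 (lmFit, eBayes, two-sided, no block) with Benjamini-Hochberg adjustment. A gene rose or fell at an adjusted p under 0.05; SE is moderated. The number of arrays limits the precision. Deviations from group means correlated at 0.36, 0.574 and 0.295 between mice of one replicate number, and at 0.303 between mutant 1 and control 3; the labels do not say what a number shares. Figures used matplotlib 3.10.9.

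The 10 genes, lists and alternatives were chosen with earlier results of these data known. Named were these genes, Zeb2, other iron genes past the test (or the smallest p of a list with none) and the 5 genes most like the highest and lowest member; Steap4, Aco1, Ireb2, Hjv and markers were chosen after their values were seen. Alternatives changed the low-value filter, normalization, offset, prior, array weights, block, rows, covariates or samples.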

Additional observations from a re-analysis of the deposited data

How the results depend on the processing

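The 10 genes had no reversal of a difference that passed, over 19 alternatives of which the adipocyte covariate was chosen after seeing the data. Of the 10 genes, 4 passed in the reported fit, 2 with sex as a covariate, and 1 to 4 when 1 mouse was left out. With the replicate number as a block 5 passed, Tfrc being added, and of the other iron genes 6, with Hjv added and Steap1 and Lcn2 lost. Of the other iron genes 7 passed in the reported fit, 14 with array weights, 4 without both mice numbered 2, and 3 to 7 when 1 mouse was left out. Of all genes 1948 passed, 3655 with array weights, and 896 to 2021 when 1 mouse was left out. Cybrd1, Steap2, Hmox1 and Alad passed in all 19. Cp did not pass with median centring (difference 0.56) or sex as a covariate (0.60), nor Slc39a14 with sex as a covariate (0.83). The cause was not tested, and fits without a mouse have fewer samples. With the lowest 50% of genes left out, 8 of the 10 genes and 50 of the other iron genes were tested. With 3 mice per group the precision is limited. Separately, values near or below the array medians may be partly background, whose level is not known here.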
